A study of Mus musculus with 6 samples.

Results

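The nuclear receptors are a family of transcription factors, most of which are switched by small lipid-soluble ligands such as bile acids, oxysterols, fatty acids, retinoids, thyroid hormone and steroids. Genes of the family were picked by symbol from a list of 43, and 42 of them had a probe set among the 16331 gene probe sets of the deposited table. Of these, 41 were named by the platform annotation, and Nr1h2 was named by the Entrez gene number of its row. The expression of Nr3c2, the mineralocorticoid receptor, was not analysed here, and that gene enters only the search of start regions.

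Many receptors bind DNA as pairs with a retinoid X receptor, at repeats of the core sequence AGGTCA, and recruit corepressors without ligand and coactivators with it. In the liver they set the rates of bile acid synthesis, lipid and glucose handling and the breakdown of foreign compounds. Orphan members such as Hnf4a keep up the hepatocyte programme, and others link metabolism to the circadian clock.

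The arrays compared livers of mice labelled wildtype (3 arrays, 426, 428 and 430) with livers labelled Ugcg-deficient (3 arrays, 427, 429 and 431, called knockout here). Ugcg makes glucosylceramide, the first step of most glycosphingolipid synthesis. The sources used here do not give how the deficiency was made, which liver cells carry it, or the age, sex and strain of the mice. Nothing in the labels says whether the arrays came from separate animals, so the p-values measure the spread between arrays, which may be technical.

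Values are log2 expression as deposited, array values are listed in the order 426, 428, 430 and 427, 429, 431, and differences are knockout minus wildtype. Ugcg itself read 6.81, 6.85 and 6.87 on the wildtype and 7.12, 6.70 and 6.68 on the knockout arrays (difference -0.0088, limma adjusted p = 0.998), and the labels were taken as they stand. All 12 measured hepatocyte markers lay above the 40th percentile of probe set means, with albumin between 14.60 and 14.69. Wildtype 430 stood apart by 11 genes of the exocrine pancreas, whose mean was 1.68 above the wildtype mean there and 0.76 to 0.93 below it on the other 5 arrays. Macrophage markers were lowest on knockout 431 (13 genes, mean -0.41 from wildtype) and bile duct markers highest on knockout 429 (8 genes, 0.42). The part of these array differences in the receptor values was not tested, and in whole liver a loss of cells of a type cannot be told apart from less RNA per cell.

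None of the 42 receptors passed the test between the groups. At a limma adjusted p under 0.05, 0 of 42 were called, against 0.0245% of all gene probe sets (0.0122% higher and 0.0122% lower in the knockout arrays). At an unadjusted limma p under 0.05 there were also 0 of 42, against 4.99% of all probe sets (2.64% higher and 2.35% lower). Of the receptors, 22 had a difference above 0 and 20 below, where 52.5% of all probe sets were above 0 and 47.5% below. Their median difference was 0.019 (-0.0056 without knockout 427, -0.0059 without wildtype 430), beside 0.0059 over all probe sets, and the median size of a difference was 0.087 beside 0.062. Only Nr1d2 differed by more than 0.25 in size, 1 of 42 against 3.63% of all probe sets. The groups did not overlap for 2 of 42 receptors, against 9.57% of all probe sets. These were Nr3c1 and Rxrb, both lower in the knockout arrays (all probe sets 4.47%), and 0 were higher (5.1%).

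The intervals bound the difference in signal of each receptor's probe set. The 95% interval of the difference lay within a 1.5-fold change either way for 39 of 42 receptors, as for 97.1% of all probe sets. Nr1d2, Nr0b2 and Nr1i3 were the exceptions, and all 42 intervals lay within a 2-fold change. A mean at or below the 40th percentile (6.51) was found for 11 receptors, Vdr, Esr2, Pgr, Hnf4g, Nr2f1, Rorb, Nr4a2, Nr4a3, Esrrb, Esrrg and Nr0b1. No detection calls were used, and whether these probe sets read transcript or background was not tested.

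**Figure D1:**
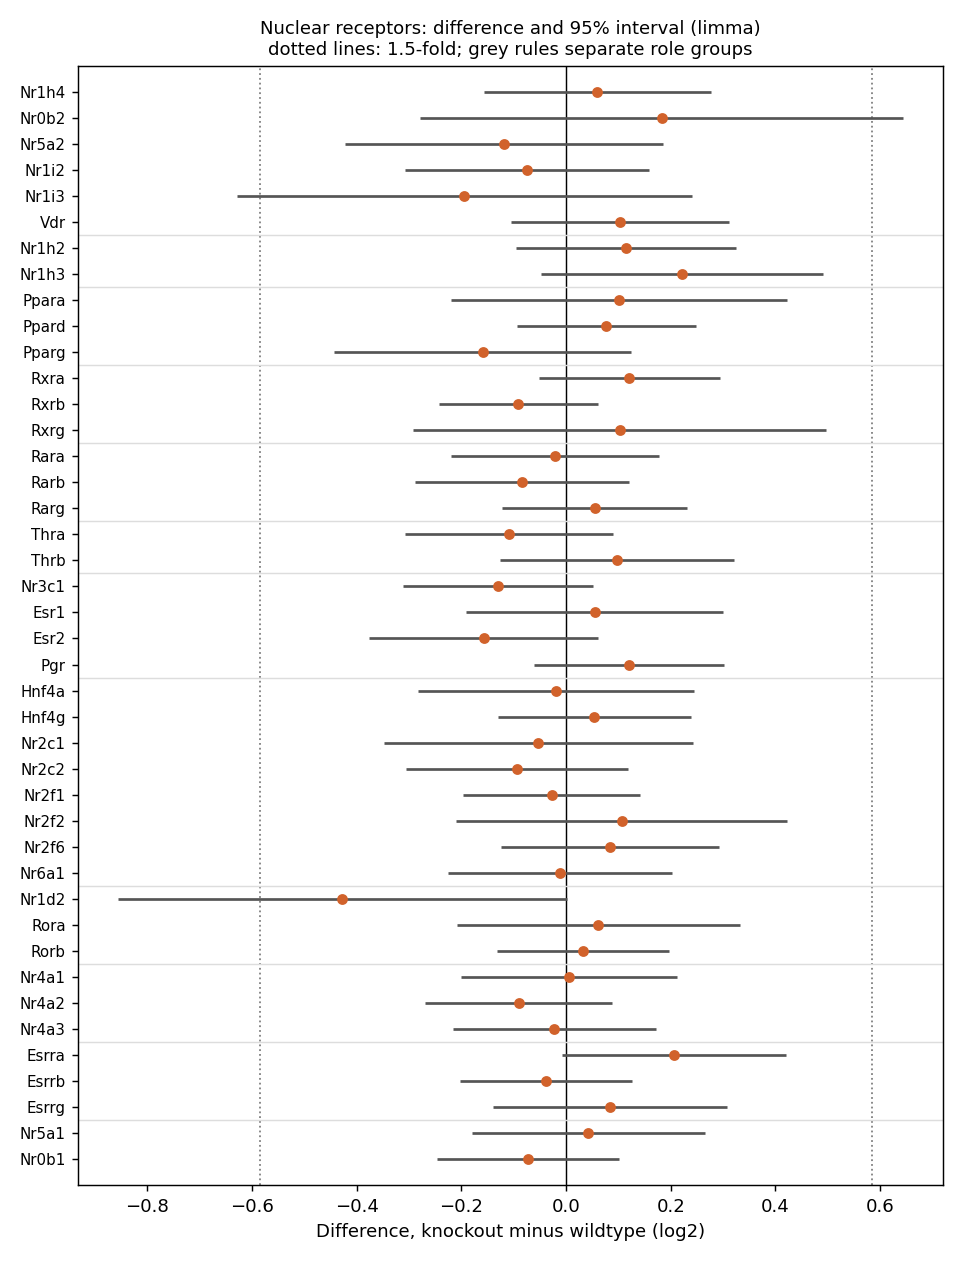
Difference between knockout and wildtype (log2, x axis) for each of the 42 measured nuclear receptors, grouped by role. Points are differences, lines are 95% intervals from limma, and dotted lines mark a 1.5-fold change. All intervals include 0, and those of Nr1d2, Nr0b2 and Nr1i3 pass a dotted line.

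Of the bile acid and xenobiotic sensors, Nr0b2 and Nr1i3 had the widest spread, and knockout 427 stood at the edge of both. Nr0b2 encodes SHP, a receptor without a DNA-binding domain that bile acid signalling induces and that represses bile acid synthesis. It read 9.14, 9.45 and 9.43 on the wildtype and 10.04, 9.13 and 9.39 on the knockout arrays. The high value belonged to knockout 427 alone, and the other knockout arrays lay within or just below the wildtype range. The difference was 0.18 (SE 0.20, 95% interval -0.28 to 0.64, limma adjusted p = 0.986), and it was -0.077 without knockout 427.

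Nr1i3 encodes CAR, which induces drug-metabolising cytochromes. It read 9.10, 9.12 and 8.81 on the wildtype and 8.34, 9.19 and 8.91 on the knockout arrays. Here knockout 427 held the lowest value and knockout 429 the highest of all 6, so the groups overlapped fully. The difference of -0.19 (SE 0.19, 95% interval -0.63 to 0.24, adjusted p = 0.984 by limma) was 0.042 without knockout 427.

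The start regions of both genes are shown with that of Nr1d2, because these 3 receptors had the widest ranges over the arrays (0.96 for Nr1d2, 0.91 for Nr0b2 and 0.85 for Nr1i3), and they and the motifs were chosen after the values were seen. Each sequence runs 5′ to 3′ on the strand of the gene from 250 bases before to 50 after a RefSeq start site (build GRCm38.p6), with AGGTCA and the E-box CACGTG, on either strand, in capitals.
Nr1d2 (chr14:18239057-18239356, minus strand): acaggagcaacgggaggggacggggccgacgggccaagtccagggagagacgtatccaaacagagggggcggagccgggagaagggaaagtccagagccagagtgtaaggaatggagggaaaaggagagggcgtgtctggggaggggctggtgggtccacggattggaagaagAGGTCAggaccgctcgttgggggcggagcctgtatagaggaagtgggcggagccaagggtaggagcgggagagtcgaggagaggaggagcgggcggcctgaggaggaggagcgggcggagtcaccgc
Nr0b2 (chr4:133553126-133553425, plus strand): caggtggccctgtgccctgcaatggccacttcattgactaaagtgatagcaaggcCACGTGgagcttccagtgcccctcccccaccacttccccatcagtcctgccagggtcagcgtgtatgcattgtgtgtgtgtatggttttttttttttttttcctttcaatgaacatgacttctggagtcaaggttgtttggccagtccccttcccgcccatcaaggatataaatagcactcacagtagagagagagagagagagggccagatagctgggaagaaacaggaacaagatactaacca
Nr1i3 (chr1:171213720-171214019, plus strand): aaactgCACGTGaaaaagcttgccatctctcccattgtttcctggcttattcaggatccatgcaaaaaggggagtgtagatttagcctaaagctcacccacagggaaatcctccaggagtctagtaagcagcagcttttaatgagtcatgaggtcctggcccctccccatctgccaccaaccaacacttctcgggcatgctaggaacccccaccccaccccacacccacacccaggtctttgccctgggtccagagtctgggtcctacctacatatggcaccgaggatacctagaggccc

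The Nr1d2 window held 1 AGGTCA, 77 bases before the start site, and no CACGTG. Those of Nr0b2 and Nr1i3 each held 1 CACGTG, 195 and 244 bases before it, and no AGGTCA. RefSeq windows were found for 39 of the 43 listed genes, 60 windows in all, some of them overlapping start regions of 1 gene. AGGTCA, searched on both strands, was present in 12 of the 60 (20.0%), from 11 genes, against 16.3% of 32851 windows over all genes. CACGTG was present in 6 (10.0%, all genes 7.15%). The direct repeat AGGTCANAGGTCA, which contains AGGTCA at both ends, was present in 0 of 60 (all genes 0.0396%). The cyclic AMP element TGACGTCA was present in 1, from Nr6a1 (1.67%, all genes 1.79%). The other motifs searched were TCAAGGTCA, bound by monomers of several orphan receptors, the D-box TTATGTAA and TAGGTCA. The first and the last contain AGGTCA, all 3 were present in 0 of 60 windows, and they were present in 0.423%, 0.938% and 2.61% of all windows. These matches describe letters in the windows and are no sites of binding.

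The bile acid receptor FXR, encoded by Nr1h4, read 9.27, 9.33 and 9.17 on the wildtype and 9.24, 9.20 and 9.51 on the knockout arrays. Knockout 431 was the highest and wildtype 430 the lowest, and the other arrays of both groups were interleaved (difference 0.060, 95% interval -0.16 to 0.28). Nr5a2, or LRH-1, which drives the bile acid synthesis genes that SHP represses, read 10.19, 9.90 and 9.59 against 9.74, 9.74 and 9.84. The knockout arrays lay close together inside a wildtype range that ran from array 430 at the bottom to 426 at the top (difference -0.12, 95% interval -0.42 to 0.18).

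Nr1i2, the xenobiotic receptor PXR, had a difference of -0.074 (95% interval -0.31 to 0.16), with 8.03, 8.18 and 7.78 against 7.91, 7.98 and 7.88. All knockout values lay within the wildtype range. The vitamin D receptor Vdr, little expressed in hepatocytes, read 6.04, 6.14 and 6.09 against 6.07, 6.38 and 6.13 (difference 0.10, 95% interval -0.11 to 0.31), and knockout 429 alone lay above the wildtype arrays.

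Both oxysterol receptors had differences above 0, and neither passed. Nr1h3, or LXR alpha, induces genes of cholesterol efflux and fatty acid synthesis and is the main LXR of hepatocytes. It read 8.88, 8.77 and 9.24 on the wildtype and 9.28, 9.15 and 9.13 on the knockout arrays. All knockout arrays exceeded wildtype 426 and 428, whereas wildtype 430 lay above knockout 429 and 431. The difference was 0.22 (SE 0.12, 95% interval -0.047 to 0.49, limma adjusted p = 0.982). Without wildtype 430, the array with pancreatic transcripts, it was 0.36 (SE 0.089, limma adjusted p = 0.423), the smallest adjusted p of any receptor in the 12 planned refits.

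Nr1h2, or LXR beta, which is found in most tissues, read 8.35, 8.17 and 8.00 against 8.28, 8.30 and 8.28. The knockout arrays had an SD of 0.014 and lay inside the wider wildtype range (difference 0.11, 95% interval -0.096 to 0.33).

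Among the fatty acid receptors, Ppara, which turns on fatty acid oxidation and ketogenesis in fasting, read 9.82, 10.20 and 9.85 against 9.81, 10.04 and 10.32. The lowest and the highest of the 6 values were both from knockout arrays (difference 0.10, 95% interval -0.22 to 0.42). Ppard, a receptor found in most tissues, read 6.79, 6.61 and 6.66 against 6.82, 6.74 and 6.72 (difference 0.077, 95% interval -0.093 to 0.25). Only knockout 427 lay outside the wildtype range, by a small margin.

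Pparg, the adipogenic receptor that accumulates in fatty liver, read 7.46, 7.42 and 7.14 against 7.15, 6.99 and 7.41. The groups overlapped through wildtype 430 at the low end and knockout 431 at the high end. The difference was -0.16 (SE 0.12, 95% interval -0.44 to 0.12, limma adjusted p = 0.982). The mean of the 8 measured fat cell markers was highest on knockout 431, the highest knockout array for Pparg. It was 0.43 above wildtype there, against -0.038 to 0.068 on the other arrays. Not every marker was highest there. Cidec read 6.31 on knockout 431 and 6.40 on wildtype 426, and Pck1, also expressed by hepatocytes, read 11.73 on knockout 431 and 11.85 on knockout 427. The part of the fat cell markers in the Pparg values was not tested.

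The retinoid X receptors are the shared partners of the sensors above. Rxra, the main one of hepatocytes, read 8.90, 8.98 and 8.79 against 9.03, 8.96 and 9.04, so that wildtype 428 lay above knockout 429 and kept the groups from separating. Its difference was 0.12 (SE 0.076, 95% interval -0.051 to 0.29, limma adjusted p = 0.982). Rxrb, more evenly expressed across tissues, read 9.12, 9.04 and 9.04 against 8.996, 8.94 and 8.99. Every knockout array lay below every wildtype array, by a gap smaller than the spread within either group. Its difference was -0.091 (SE 0.067, 95% interval -0.24 to 0.061, limma adjusted p = 0.982). Rxrg, a muscle and brain form, ranged from 6.50 on knockout 427 to 7.06 on wildtype 428 with the groups intermixed (difference 0.10, 95% interval -0.29 to 0.50).

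**Figure D2:**
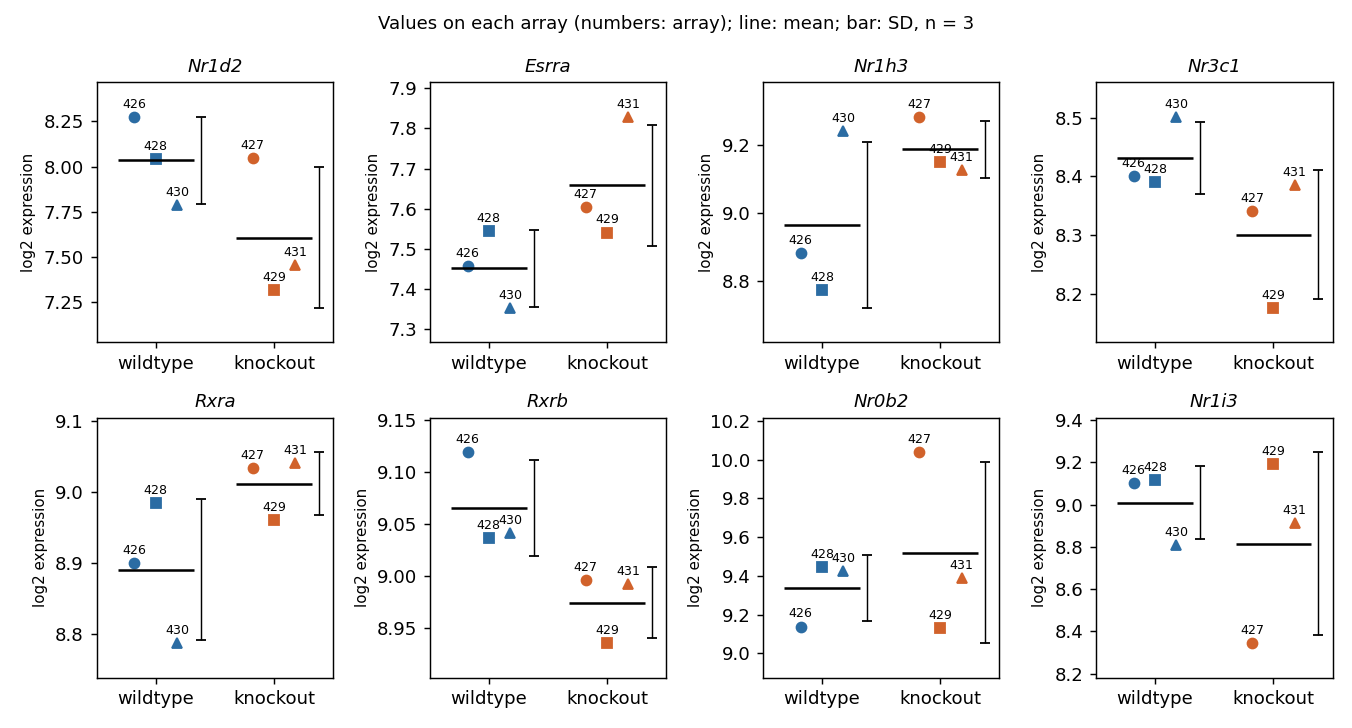
Log2 expression (y axis, a separate range for each gene) of 8 receptors on the 3 wildtype (blue) and 3 knockout (orange) arrays; lines are means, bars are SD (n = 3) and numbers name the arrays. Groups separate only for Nr3c1 and Rxrb, and knockout 427 is highest for Nr0b2 and lowest for Nr1i3.

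The retinoic acid receptors, which bind all-trans retinoic acid, held differences of -0.021 for Rara, -0.084 for Rarb and 0.055 for Rarg. Rarb, itself a retinoic acid target, had the smallest p of them, with 6.71, 6.84 and 6.52 against 6.57, 6.66 and 6.59. The knockout values lay within the wildtype range (95% interval -0.29 to 0.12, limma adjusted p = 0.986).

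Of the thyroid hormone receptors, Thrb is the main form of the liver and Thra that of heart, bone and brain. Thra read 6.96, 7.13 and 6.85 against 6.91, 6.80 and 6.92 (difference -0.11, 95% interval -0.31 to 0.089), and knockout 429 alone lay below all wildtype arrays. Thrb read 6.88, 6.91 and 7.08 against 7.24, 6.93 and 6.99 (difference 0.097, 95% interval -0.13 to 0.32), and knockout 427 alone lay above them. The signs of the 2 differences were opposite, and neither passed the test.

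Among the steroid hormone receptors, Nr3c1 was the other gene whose groups did not overlap. It encodes the glucocorticoid receptor, which raises gluconeogenic and amino acid breakdown genes. It read 8.40, 8.39 and 8.50 on the wildtype and 8.34, 8.18 and 8.38 on the knockout arrays. Knockout 431 lay just below wildtype 428, so the gap was far narrower than either group's range. The difference was -0.13 (SE 0.080, 95% interval -0.31 to 0.051, limma adjusted p = 0.982). Leaving out 1 array at a time gave -0.17 to -0.068.

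Esr1, the oestrogen receptor of hepatocytes, had a difference of 0.055 (95% interval -0.19 to 0.30). It read 7.11, 7.001 and 7.01 against 7.30, 6.87 and 7.12, with both extremes from knockout arrays. Esr2, the beta form, which is scarce in liver, read 6.48, 6.17 and 6.34 against 6.20, 6.06 and 6.26 (difference -0.16, 95% interval -0.38 to 0.061). The progesterone receptor Pgr read 5.86, 5.95 and 5.77 against 5.89, 6.05 and 6.003 (difference 0.12, 95% interval -0.060 to 0.30). Both probe sets were among the 11 dim ones.

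Hnf4a, the orphan receptor that holds the hepatocyte programme in place, was nearly level. It read 10.20, 10.21 and 10.34 on the wildtype and 10.50, 10.10 and 10.09 on the knockout arrays. Knockout 427 was the highest of the 6 and knockout 429 and 431 the lowest, and the difference was -0.019 (SE 0.12, 95% interval -0.28 to 0.24, limma adjusted p = 0.996). Its intestinal relative Hnf4g had a difference of 0.054 (95% interval -0.13 to 0.24).

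The COUP factors, which mostly repress and compete for the sites of other receptors, differed by -0.028 (Nr2f1), 0.11 (Nr2f2) and 0.084 (Nr2f6). Nr2f2 ranged from 6.86 on wildtype 430 to 7.38 on knockout 429. Nr2c2, or testicular receptor TR4, had the smallest p of the wider subfamily, with 6.86, 6.94 and 6.80 against 6.84, 6.89 and 6.58, and knockout 431 alone lay below the wildtype arrays. Its difference was -0.094 (SE 0.093, 95% interval -0.31 to 0.12, limma adjusted p = 0.984). Its relative Nr2c1, or TR2, differed by -0.053, and Nr6a1, the germ cell nuclear factor, by -0.012.

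The largest difference of any receptor was that of Nr1d2, which encodes REV-ERB beta, a haem-binding repressor of the circadian clock whose transcript cycles with the time of day. It read 8.27, 8.04 and 7.79 on the wildtype and 8.05, 7.32 and 7.45 on the knockout arrays. Knockout 429 and 431 lay below every wildtype array, whereas knockout 427 lay above wildtype 428 and 430. The means were 8.03 ± 0.24 and 7.61 ± 0.39 (SD, n = 3 each). The difference was -0.43 (SE 0.19, 95% interval -0.86 to 0.000998, limma adjusted p = 0.982). It ranked 827 by p among the 16331 probe sets. Nr1d2 differed by -0.65 without knockout 427 (limma adjusted p = 0.506), by -0.55 without wildtype 430 and by -0.28 without knockout 429. In none of these did it pass after adjustment.

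The other clock receptors, which activate where REV-ERB represses, differed by 0.062 (Rora) and 0.032 (Rorb). Rora read 8.91, 8.93 and 8.83 against 9.23, 8.89 and 8.73, with both extremes from knockout arrays. REV-ERB alpha, Nr1d1, was not among the listed receptors and read 7.35, 7.30 and 6.72 against 7.15, 6.76 and 6.69 (difference -0.26, SE 0.18, limma adjusted p = 0.982). Of 11 measured genes that REV-ERB and ROR receptors or the clock control, 8 had a difference above 0 and 3 below (median 0.073), and 1 reached an unadjusted p under 0.05, against 4.99% of all probe sets. The count was 0 without wildtype 426 or 428, 2 without knockout 427 and 3 without wildtype 430. With all arrays that gene was Clock (0.25, limma adjusted p = 0.982), followed by Nfil3 (0.30), which REV-ERB represses, and the fatty acid elongase gene Elovl3 (0.13). Arntl, a classical REV-ERB target, read 8.61, 8.45 and 8.42 against 8.65, 8.68 and 8.36 (difference 0.073). None of these passed after adjustment, and the sources used here give no time of day for the livers.

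The orphan NR4A receptors, immediate early genes that signals induce without a ligand, showed small differences of 0.0055 (Nr4a1), -0.090 (Nr4a2) and -0.022 (Nr4a3). Nr4a1 read 7.15, 7.20 and 6.97 against 7.05, 7.04 and 7.25, and Nr4a2 read 6.29, 6.33 and 6.50 against 6.26, 6.26 and 6.33. Neither set of values separated by group. Of 17 other immediate early genes, 4 had a difference above 0 and 13 below (median -0.062). At an unadjusted p under 0.05 there were 4, all lower, where 2.35% of all probe sets were lower. The count at that p was 1 without wildtype 426 and 2 without wildtype 428 or knockout 431. Egr1, a zinc finger factor of this class, read 10.19, 9.28 and 9.06 against 8.99, 7.70 and 7.70 (difference -1.38, SE 0.38, limma adjusted p = 0.888). Every knockout array lay below every wildtype array. Ier2 (-0.31) and Junb (-0.37) had the next smallest p-values, Myc was the last of the 4, and Fos differed by -0.036.

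Esrra had the second smallest p of the receptors. It encodes the oestrogen-related receptor alpha, which works with PGC-1 coactivators on mitochondrial genes. It read 7.46, 7.55 and 7.35 on the wildtype and 7.61, 7.54 and 7.83 on the knockout arrays. Knockout 431 stood clear of the rest, and wildtype 428 lay just above knockout 429. The difference was 0.21 (SE 0.094, 95% interval -0.0069 to 0.42, limma adjusted p = 0.982). Esrrb (-0.039) and Esrrg (0.084), forms of other tissues, were dim. Of 11 measured genes of the citric acid cycle, respiration and other ERR targets, 5 had a difference above 0 and 6 below (median -0.0026), and 0 reached an unadjusted limma p under 0.05. The median was above 0 without knockout 427 (0.020) or wildtype 430 (0.034), 3 were above 0 without knockout 431, and 1 gene reached that p without knockout 427 or wildtype 428.

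Nr5a1, or SF-1, and Nr0b1, or DAX-1, are receptors of the adrenal and gonad. Nr5a1 differed by 0.043 (95% interval -0.18 to 0.27). Nr0b1 read 5.88, 5.87 and 6.05 against 5.85, 5.91 and 5.83, a difference of -0.073 (95% interval -0.25 to 0.10), with wildtype 430 as the highest array.

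The spread within the wildtype group was uneven across the family. Wildtype 430 held the lowest of the 6 values for 16 of 42 receptors (38.1%), whereas it held the lowest value for 18.5% of all gene probe sets. Wildtype 426 held the lowest value for 2 receptors (4.76%, all probe sets 17.2%) and the highest for 10 (23.8%, all probe sets 14.9%). Averaged over the receptors, wildtype 430 had a mean of -0.071 relative to the wildtype mean, and the knockout arrays lay between -0.0093 and 0.0097 of it. Receptors are not replicates of an array, and this pattern was noticed in the values, so it carries no test. The pancreatic transcripts were high on the same array, where the receptors were low, and their part was not tested. The same array was also low for lists outside the family, at -0.20 for retinoid and vitamin D receptor targets, -0.16 for PPAR targets, -0.11 for LXR targets and -0.19 for lymphocyte markers. It was above the wildtype mean for receptor chaperones (0.19) and coregulators (0.067), so its low position was not limited to the receptors.

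**Figure D3:**
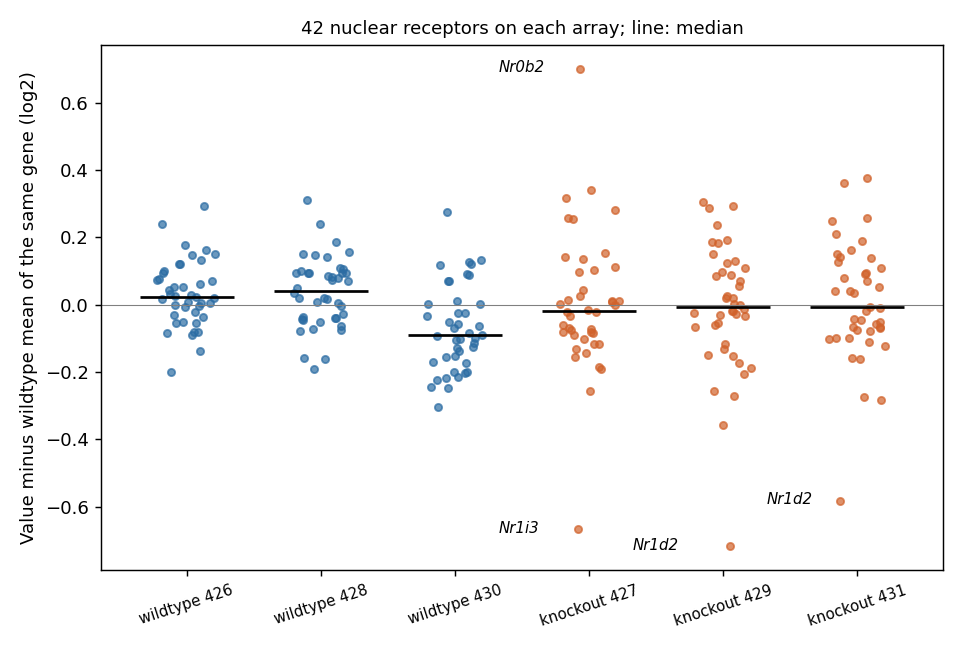
Each of the 42 receptors on each array as its value minus the wildtype mean of the same gene (log2, y axis); lines are medians over receptors, blue wildtype and orange knockout. Wildtype 430 lies lowest as a group, and Nr0b2 and Nr1i3 on knockout 427 and Nr1d2 on knockout 429 and 431 lie outside the rest.

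**Figure D4:**
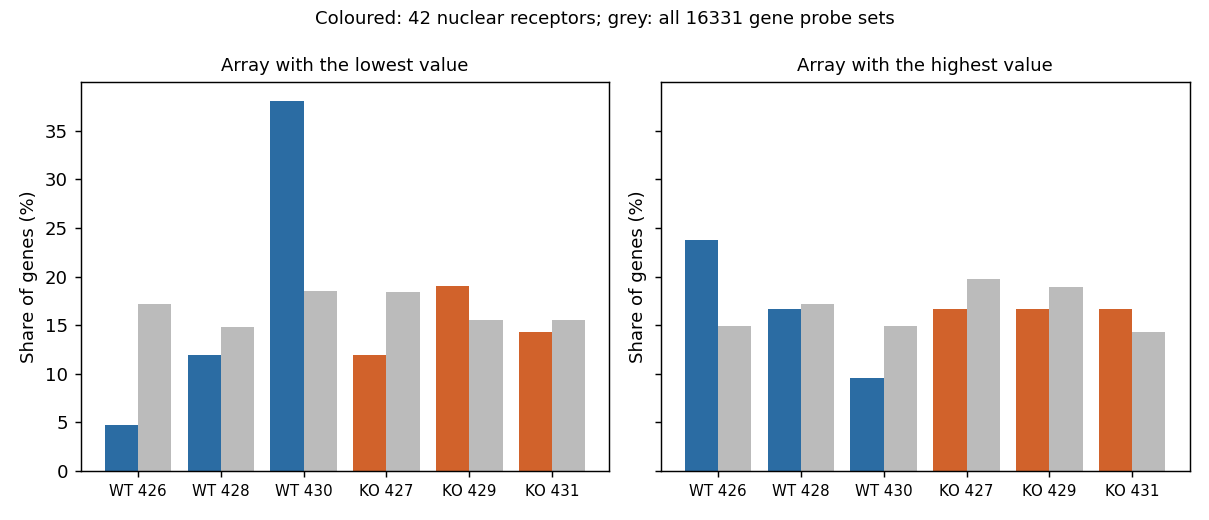
Share of genes (y axis, %) for which each array held the lowest (left) or highest (right) of the 6 values, for the 42 receptors (coloured) and all 16331 gene probe sets (grey). Wildtype 430 held the lowest value for 38.1% of receptors and 18.5% of all probe sets.

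Genes that the receptors control were read from lists, which were chosen with earlier results of these data known. Each list is given by its counts and its median, beside the median of 0.0059 over all probe sets. With all arrays, the matching background at an unadjusted limma p under 0.05 is 4.99%. It shifts when 1 array is left out, here and for the clock, immediate early and ERR genes above. Without wildtype 426, 1.97% of all probe sets were higher and 1.61% lower at that p. Without wildtype 428 they were 2.24% and 1.75%, and without wildtype 430 3.65% and 3.3%. Leaving out knockout 427, 429 or 431 gave 2.68%, 2.3% and 3.21% higher and 2.3%, 2.09% and 3.05% lower.

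Among 14 measured targets of FXR and SHP, 8 had a difference above 0 and 6 below (median 0.030), and 3 reached an unadjusted limma p under 0.05. These were the anion transporter Slco1a1 (-0.27), the repressor Mafg (-0.24) and the lipoprotein lipase cofactor Apoc2 (0.29). The count at that p was 1 without knockout 431 or wildtype 430 and 5 without knockout 427, and the median was below 0 without knockout 429 (-0.030, with 5 above 0) or wildtype 430 (-0.011). With all arrays the limma adjusted p was 0.951 or above for Slco1a1, Mafg and Apoc2. In the planned refits the smallest of theirs was 0.423, for Mafg without wildtype 430. Cyp7a1, the rate-limiting enzyme of classical bile acid synthesis, read 10.35, 9.52 and 10.53 against 9.59, 11.19 and 10.90. Knockout 427, the array with the highest Nr0b2, held the lowest Cyp7a1 of its group, although wildtype 428 was lower still (difference 0.43, SE 0.40). A link between these genes was not tested. The bile salt export pump Abcb11, an FXR target, differed by -0.11.

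LXR targets held the 1 gene of all these lists that passed outside the hepatocyte markers, Rnf145, which LXR induces and whose product is an endoplasmic reticulum E3 ligase. As the lists were chosen with earlier results known, its place among the LXR targets is no test of LXR. Rnf145 rose from 8.33, 8.64 and 8.50 on the wildtype to 9.22, 9.39 and 9.43 on the knockout arrays (difference 0.86, SE 0.098, limma adjusted p = 0.0483). The groups lay wholly apart. The call was lost after quantile normalization (adjusted p = 0.0624) and when any 1 array was left out (limma adjusted p = 0.0617 to 0.273, with differences of 0.78 to 0.93), and without both wildtype 430 and knockout 427 (0.0523). Of the 14 measured LXR targets 10 had a difference above 0 and 4 below (median 0.048), and 2 reached an unadjusted p under 0.05, the other being lipoprotein lipase Lpl (0.40). Without wildtype 430 the list had 6 above 0 and a median of -0.10, so its direction rested on that array, and without knockout 429 the count at that p was 1. Fasn, fatty acid synthase, differed by 0.35. The cholesterol exporter Abca1 read 8.66, 8.66 and 9.26 against 9.18, 8.73 and 9.05 (difference 0.12). Srebf1, the lipogenic factor that LXR induces, ran from 9.76 on knockout 427 to 11.90 on knockout 431, wider than the wildtype range (difference -0.048, SE 0.45).

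Among 19 measured targets of PXR and CAR, 9 had a difference above 0 and 10 below (median -0.026), and 2 reached an unadjusted p under 0.05. Without knockout 427 the median was 0.013 with 0 genes at that limma p, and without wildtype 426 it was 0.029. Cyp2c29, a drug-metabolising cytochrome, read 13.29, 13.13 and 13.15 against 12.73, 13.06 and 12.92 (difference -0.28, SE 0.096, limma adjusted p = 0.951). It was lowest on knockout 427, the array with the lowest Nr1i3, whereas Cyp2b10 was lowest on wildtype 430 and Cyp3a11 on knockout 429. A link to Nr1i3 was not tested. The sulfotransferase Sult1d1 differed by -0.21 and the retinal dehydrogenase Aldh1a1 by -0.19. The classical CAR target Cyp2b10 read 7.58, 7.45 and 6.88 against 7.24, 7.82 and 7.63 (difference 0.26), and the PXR target Cyp3a11 differed by -0.091.

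Among 23 measured PPAR targets, 13 had a difference above 0 and 10 below (median 0.025), and 1 reached an unadjusted p under 0.05. The median was below 0 without wildtype 428 (-0.0023), knockout 429 (-0.012), knockout 431 (-0.0094) or wildtype 430 (-0.041, with 8 above 0). The count at that p was 0 without knockout 429, 2 without wildtype 430 and 5 without knockout 427. Without both wildtype 430 and knockout 427, a choice made after seeing the data, it was 6 (all probe sets 3.53% higher and 3.22% lower). In that refit Cyp4a10 passed after adjustment, with a difference of 0.71 with all arrays. The gene that reached an unadjusted limma p under 0.05 with all arrays was Cpt1a, the gate of mitochondrial fatty acid import. It read 9.91, 10.01 and 9.69 against 9.58, 9.61 and 9.67 (difference -0.25, SE 0.092, limma adjusted p = 0.951). Angptl4 (-0.47) and Fabp4 (0.49) came next. Fabp4, a fatty acid carrier of fat cells and macrophages, read 7.53, 7.75 and 7.77 against 7.56, 7.97 and 8.99. It is itself 1 of the 8 fat cell markers. Knockout 431, where the mean of these markers was highest, held the high Fabp4 value alone, and without that array the difference was 0.082. The omega-hydroxylase Cyp4a14, a sensitive PPAR alpha target, ranged from 6.90 on wildtype 430 to 9.72 on knockout 429 (difference 0.81, SE 0.58), so that its spread within groups was as large as its difference. Pdk4 differed by 0.12 and Cd36 by 0.090.

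Thyroid hormone targets had 5 of 10 above 0 (median -0.0021) and 1 at an unadjusted p under 0.05, the zinc finger factor Klf9, which glucocorticoids also induce. Klf9 read 9.38, 9.64 and 9.44 against 9.24, 9.19 and 8.98 (difference -0.35, SE 0.098, limma adjusted p = 0.888). The list's median was above 0 without knockout 427 (0.0020, with 3 genes at that p), knockout 429 (0.064), wildtype 430 (0.034) or wildtype 426 (0.11). Nrgn (0.41) and Bcl3 (0.19) followed. The deiodinase Dio1 (0.0020) and the lipogenic Thrsp (-0.0062) were level between groups, with intervals of -0.24 to 0.24 and -0.62 to 0.61.

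Of 15 measured targets of the glucocorticoid and other steroid receptors, 7 had a difference above 0 and 8 below (median -0.027), and 5 reached an unadjusted p under 0.05, 3 higher and 2 lower. None passed after adjustment. The median was above 0 without knockout 427 (0.061, with 8 genes at that p) and without wildtype 430 (0.10). Tat, the tyrosine aminotransferase that glucocorticoids induce, read 12.58, 12.53 and 12.44 against 12.69, 12.91 and 13.24 (difference 0.43, SE 0.13, limma adjusted p = 0.951). Tsc22d3, or GILZ, another induced gene, read 9.18, 9.72 and 8.81 against 9.68, 9.84 and 10.15 (difference 0.65). Zbtb16, also induced by glucocorticoids, went the other way, with 7.50, 8.04 and 7.92 against 7.56, 6.90 and 6.76 (difference -0.75). Cdkn1a, a cell cycle inhibitor, differed by -0.59 (limma adjusted p = 0.670), the gluconeogenic Pck1 was the last of the 5, and Fkbp5 differed by -0.16.

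Targets of retinoid and vitamin D receptors had 2 of 9 above 0 and 7 below (median -0.025), with Hoxa5 (-0.18) at an unadjusted p under 0.05 and Tgm2 (0.14) next. Without knockout 427 there were 5 above 0 and a median of 0.021; the count at that p was 0 without wildtype 426, wildtype 428, knockout 427 or knockout 429, and 2 without wildtype 430. Cyp26a1, which degrades retinoic acid and is induced by it, read 8.97, 9.88 and 8.05 against 8.40, 8.79 and 8.25 (difference -0.49, SE 0.38). The vitamin D target Cyp24a1 differed by -0.0020. Targets of HNF4A had 8 of 15 above 0 (median 0.0065), with Otc (-0.19), Mttp (-0.18) and F12 (0.085) at the smallest p-values and Apoc3 at -0.015. In this list 0 genes reached an unadjusted limma p under 0.05, and 2 did without wildtype 428 or knockout 431. Its median was below 0 without knockout 427 (-0.025), knockout 429 (-0.0013) or wildtype 430 (-0.019).

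Among 23 measured coactivators and corepressors, 13 had a difference above 0 and 10 below (median 0.016), and 3 reached an unadjusted p under 0.05. The count at that limma p was 0 without knockout 431 and 1 without knockout 429, and the median was below 0 without knockout 427 (-0.0045) or wildtype 428 (-0.050). Ppargc1a, or PGC-1 alpha, the fasting-induced coactivator of PPAR alpha, HNF4A and ERR alpha, read 7.01, 7.14 and 7.25 against 7.01, 6.78 and 6.62 (difference -0.33, SE 0.11, limma adjusted p = 0.951). Lpin1, a phosphatidate phosphatase that also coactivates PPAR alpha, read 10.47, 10.83 and 11.46 against 10.85, 9.15 and 8.97 (difference -1.26, SE 0.45, limma adjusted p = 0.951). Without both knockout 427 and wildtype 430, a choice made after seeing the data, Lpin1 differed by -1.59 and passed (limma adjusted p = 0.0141). It was not the only listed gene to do so, as the PPAR target Cyp4a10 also passed in that refit. In Ppargc1a and Lpin1, knockout 429 and 431 were the lowest arrays and knockout 427 lay among or at the edge of the wildtype values. Tbl1x, a corepressor subunit, differed by 0.19, and Nrip1, or RIP140, by -0.038.

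Of 21 measured genes that make or remove receptor ligands, 14 had a difference above 0 and 7 below (median 0.020), and 0 reached an unadjusted limma p under 0.05, or 2 without knockout 427 and 1 without knockout 429 or wildtype 430. Aldh1a1, which makes retinoic acid, Akr1d1 (0.21), which acts in bile acid and steroid synthesis, and the vitamin D hydroxylase Cyp2r1 (0.24) had the smallest p-values. Hsd11b1, which regenerates active glucocorticoid, differed by 0.0013 (95% interval -0.23 to 0.24). The chaperones that hold steroid receptors ready for ligand had 8 of 11 above 0 (median 0.12), and 1, Fkbp4, reached an unadjusted p under 0.05. Their mean was 0.39 above wildtype on knockout 427, 0.028 on 429 and 0.0098 on 431. The median was 0.029 without knockout 427, 0.031 without wildtype 426 and 0.30 without wildtype 430. The count at that limma p was 0 without knockout 427, wildtype 426 or wildtype 428, 2 without knockout 429 and 4 without wildtype 430. Fkbp4 read 10.00, 9.77 and 10.26 against 10.55, 10.20 and 10.29 (difference 0.34, SE 0.13, limma adjusted p = 0.960), and was highest on knockout 427. Dnajb1 (0.47) was also highest there, at 9.80 against at most 8.81 on the other arrays, and Ptges3 differed by 0.19.

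**Figure D5:**
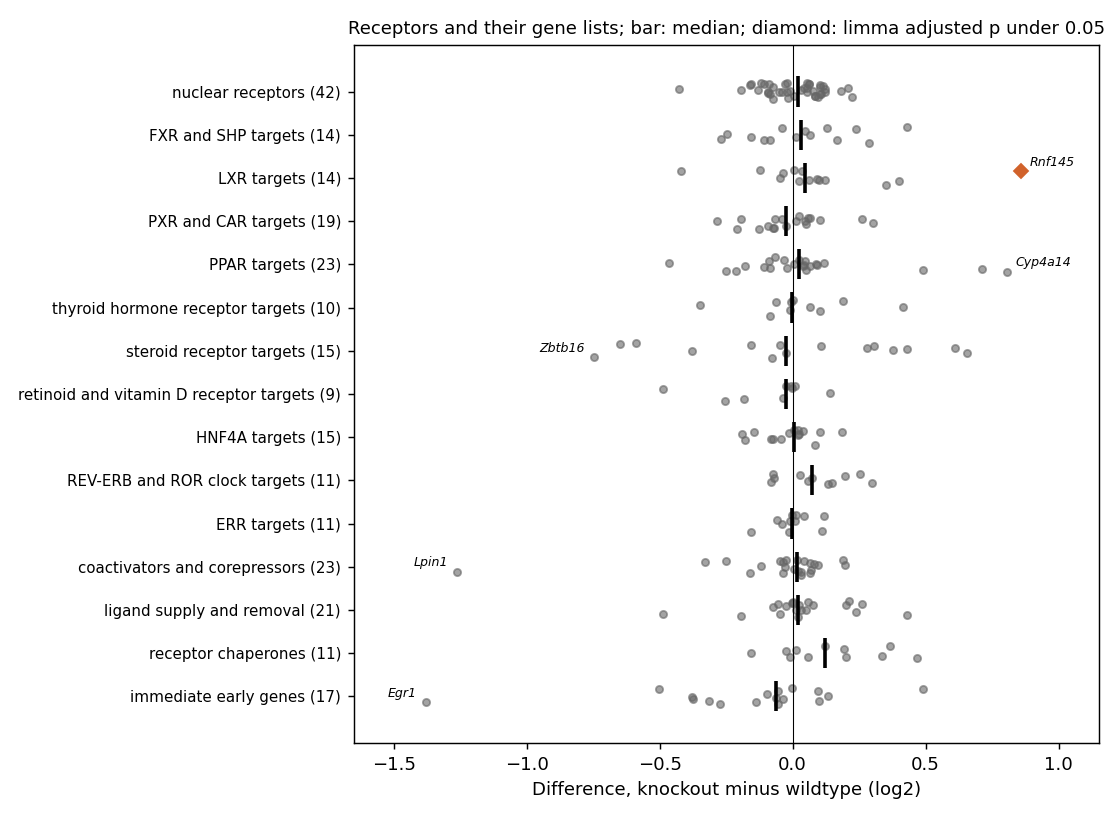
Difference between knockout and wildtype (log2, x axis) of every measured gene of the receptor family and of 14 lists of related genes, with the number measured in brackets; black bars are medians and the diamond marks limma adjusted p under 0.05. List medians lie between -0.062 and 0.12, and Rnf145 is the single gene shown that passed.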

How the data were processed

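Liver RNA was labelled with biotin as cRNA for Affymetrix arrays, per the labels' protocols. The deposited log2 values of 16331 gene probe sets (64 AFFX controls were left out) were used unchanged. The log2 scale was read from their range of 5.38 to 14.69. The authors' background correction, normalization and summarisation stand as not given in the sources used here. Precision is limited by the number of arrays. Array medians lay between 6.79 and 6.81.

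Groups came from the sample titles. limma (version 3.58.1, R 4.3.3; lmFit, eBayes, 4 residual and 4.85 prior degrees of freedom) compared 3 with 3 arrays in a two-sided test; p-values were adjusted by Benjamini-Hochberg over every gene probe set, with a threshold of 0.05. An exact permutation test could not go below 0.1 and was not run. The test was tried on simulated data first. Members and lists were chosen with earlier results of these data known. Values per array are given for receptors with groups apart, differences over 0.25 or the smallest p of a role group, and for further receptors chosen by their role; of each list, the 3 smallest p-values and a few textbook targets are named. Alternatives were quantile normalization, median centring, a filter at the 40th percentile, trend and robust variance, array quality weights, adjustment over named genes, and leaving out each array. Promoters are from RefSeq (GRCm38.p6). A planned comparison of receptor proteins was not run.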

Additional observations from a re-analysis of the deposited data

How the results depend on the processing

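No receptor passed the limma adjusted threshold in any of the 12 planned refits (smallest adjusted p 0.423) or without both wildtype 430 and knockout 427, an alternative chosen after seeing the data. The sign was kept in all planned refits by 23 of 42 receptors, leaving out 1 array turned it for 19, and the cause was not tested. Gene probe sets past the threshold numbered 4 with all arrays, 8 with array quality weights, 8 without wildtype 430 and knockout 427, and 0 to 4 when 1 array was left out. At an unadjusted limma p under 0.05, 1 receptor was lower after quantile normalization and 1 with array quality weights, both Nr1d2. Over all probe sets 2.6% and 2.63% were lower there. Leaving out 1 array gave 0 to 1 higher and 0 to 2 lower of the 42. Over all probe sets these shares were 1.97% to 3.65% higher and 1.61% to 3.3% lower. Leaving out both arrays gave 1 higher (Nr1h3) and 2 lower (Nr1d2, at -0.77, and Nr2c1). In that refit 3.53% of all probe sets were higher and 3.22% lower. The median over the receptors ran from -0.0059 to 0.047 when 1 array was left out.

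With 1 array left out, differences of receptors that changed sign ran from -0.035 to 0.12 for Nr1h4, from -0.077 to 0.38 for Nr0b2, from -0.27 to 0.028 for Nr5a2, from -0.18 to 0.019 for Nr1i2, from -0.38 to 0.042 for Nr1i3, from -0.029 to 0.22 for Ppara, from -0.0086 to 0.28 for Rxrg, from -0.097 to 0.045 for Rara, from -0.047 to 0.17 for Esr1, from -0.16 to 0.052 for Hnf4a, from -0.18 to 0.057 for Nr2c1, from -0.055 to 0.016 for Nr2f1, from -0.0032 to 0.25 for Nr2f2, from -0.11 to 0.049 for Nr6a1, from -0.078 to 0.17 for Rora, from -0.0036 to 0.067 for Rorb, from -0.063 to 0.052 for Nr4a1, from -0.10 to 0.044 for Nr4a3, from -0.030 to 0.12 for Nr5a1. Those of other named genes ran from -0.59 to 0.48 for Srebf1, from -0.078 to 0.39 for Pdk4, from -0.049 to 0.25 for Cd36, from -0.11 to 0.098 for Dio1, from -0.30 to 0.25 for Thrsp, from -0.056 to 0.065 for Cyp24a1, from -0.027 to 0.0021 for Apoc3, from -0.15 to 0.15 for Nrip1, from -0.11 to 0.090 for Hsd11b1, from -0.11 to 0.063 for Fos, from -0.15 to 0.068 for Ugcg, from -0.011 to 0.70 for Nrgn, from -0.018 to 0.058 for Nr2e1. Signs also turned under other settings: after quantile normalization, Nr4a1 -0.0018, Dio1 -0.0073, Hsd11b1 -0.023; with array quality weights, Nr4a1 -0.0093, Dio1 -0.0073, Nrip1 0.015, Hsd11b1 -0.019; without both wildtype 430 and knockout 427, Nr0b2 -0.032, Rarg -0.00073, Esr1 -0.064, Rora -0.11, Nr4a1 -0.031, Nr4a3 0.049, Srebf1 0.30, Dio1 -0.019, Arntl -0.0059, Nrip1 0.15, Hsd11b1 -0.11, F12 -0.017, Cyp2r1 -0.032. No paired analysis was run, because the labels state no pairing and the groups share no replicate numbers. With 3 arrays per group the median 95% interval over all gene probe sets reached 0.192 to either side, so smaller differences could not be told from 0 for a typical probe set.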

Other observations

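A set of genes that was singled out after its values were seen shared with Nr1d2 the arrays that held the lowest values. The order of the arrays otherwise differed between them. For Nr1d2, Lpin1, Ppargc1a, Zbtb16 and Egr1, knockout 429 and 431 held the lowest values of the 6 arrays, and knockout 427 lay close to or within the wildtype range. The same 2 arrays were lowest for other listed genes, among them Angptl4 (9.51 and 9.46) and Dusp1 (8.49 and 8.71), so the pattern was not particular to this set. The share of all probe sets with the pattern was not counted. Lpin1 read 9.15 and 8.97 on knockout 429 and 431 and 10.85 on knockout 427. Egr1 read 7.70 on both of the former and 8.99 on knockout 427. Without knockout 427 the differences were -0.65 for Nr1d2, -1.86 for Lpin1, -0.43 for Ppargc1a, -0.99 for Zbtb16 and -1.81 for Egr1, and none passed limma's adjusted threshold. Knockout 427 was part of the pattern by which the genes were picked, so leaving it out was bound to enlarge the differences. Without both knockout 427 and wildtype 430, Lpin1 differed by -1.59 and passed (limma adjusted p = 0.0141). That choice of arrays was made after the values were seen, so the pass is no support for the pattern. Since these genes were chosen for this pattern, it is a description, and no p-value here tests it.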
